A study of Drosophila melanogaster with 6 samples.

Results

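The 9 genes described here, aPKC, scrib, pins, Cdc42, Galphai, numb, stau, jar and sqh, encode cortical polarity proteins, spindle orientation factors and basal determinants of the dividing neuroblast, the neural stem cell of the fly brain. They were chosen by symbol among the 3326 genes that the authors listed as changed between dom knockdown and wild type cells, out of 11859 genes behind the adjustment of the p-values. The choice therefore used the authors' own contrast, and the ratios below describe the genes and do not test them. RNA was measured by sequencing in cells sorted from brains of wandering Drosophila melanogaster larvae. The knockdown cells came from larvae in which the driver insc::Gal4 acted on UAS::Dcr-2, on UAS::CD8-GFP and on the hairpin UAS::dom-RNAi, and the wild type cells from the same driver stock crossed to w1118 males, with 3 libraries per genotype. The wild type thus also carried the Dicer-2 transgene, though Dcr-2 was 1.87-fold higher in dom knockdown (log2 0.90, SE 0.23), as the authors' deposited table gives it. The part of that difference in the ratios below was not tested. The driver insc::Gal4 expressed the hairpin and the membrane GFP in neuroblasts and part of their progeny. Each genotype is 1 cross, the knockdown rests on 1 hairpin transgene, and the sorted cells were a mixture. The series title names neuroblast maintenance and polarity, and the comparison asks which transcripts depend on Domino, the nucleosome remodelling ATPase of the Tip60 complex.

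A fly neuroblast divides unequally. The Par complex of aPKC, Par-6 and Bazooka gathers at the apical cortex, and aPKC phosphorylates the fate determinants and their adaptors so that they leave the apical side and collect in a basal crescent. Inscuteable links this complex to Pins and Galphai, which hold the spindle along the same axis through Mud and dynein. The basal crescent, with Numb, Miranda, Brat, Prospero and the RNA-binding protein Staufen, is inherited by the ganglion mother cell, while the apical daughter stays a neuroblast.

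The authors' deposited table gave 1 mean over the 6 libraries and 1 ratio per gene, so values per library, their overlap between genotypes and the depth per library are not shown here. Listed genes had an adjusted p below 0.05 in the authors' DESeq2 test. Ratios are log2 of dom knockdown over wild type with the authors' standard error (SE). In the authors' deposited table the target dom stood at 0.671 times its wild type level, a log2 ratio of -0.58 (SE 0.11). The sign of dom also served to settle which genotype was on top of the deposited ratio, so dom does not check the labels. With that sign, the eye colour gene w, a copy of which marks many fly transgenes, was 2.50-fold higher in dom knockdown (log2 1.32, SE 0.13) in the authors' deposited table. The labels name no separate larval batches for the libraries of a genotype, and the errors may be technical. In sorted cell mixtures, fewer cells of a type and less RNA per cell cannot be told apart.

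Of the 9 genes, 5 were higher in dom knockdown (scrib, numb, Galphai, jar and sqh) and 4 were lower (aPKC, stau, pins and Cdc42) in the authors' deposited table. Over all 11859 genes, 28.0% were listed, 13.9% as higher and 14.2% as lower, and since listing was the rule nothing is read from the members' count. The apical kinase and its activating GTPase were lower, the lateral scaffold and the myosins were higher, and the spindle pair and the determinants were split. Their ratios spanned 0.637 for aPKC to 2.12 for scrib, and scrib was the only one of the 9 with a change of at least 2-fold. The authors' DESeq2 adjusted p-values, which made the choice, ran from 1.04e-21 for scrib to 0.0423 for Galphai, the member nearest the threshold. Genes just outside the threshold have no values in the table used here. The plot of ratios by protein class shows that the intervals of scrib and aPKC lie farthest from 0.

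**Figure D1:**
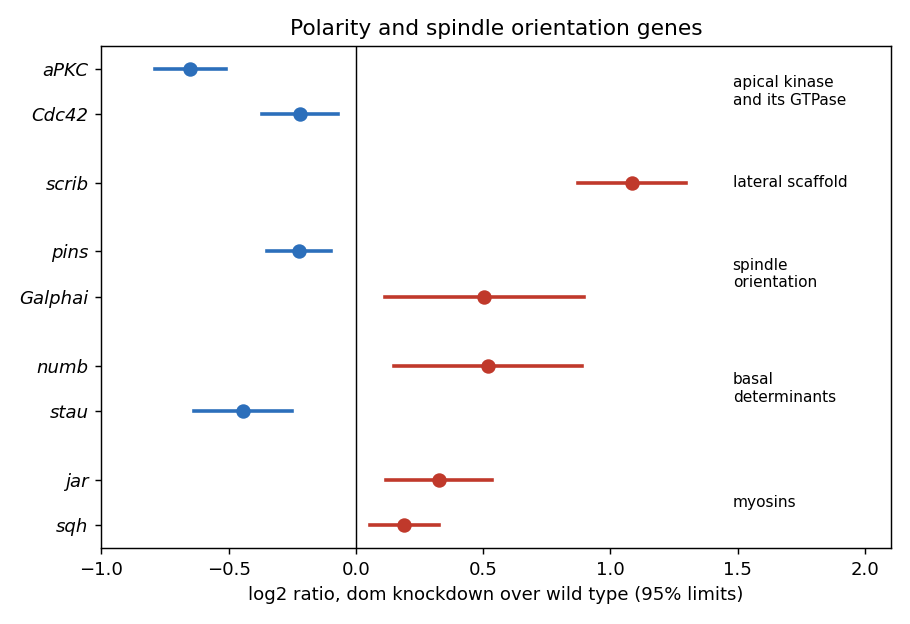
The horizontal axis gives the log2 ratio of dom knockdown over wild type from the authors' deposited table, with points for the ratio and lines for 95% normal limits from the authors' SE, for the 9 genes ordered by protein class. Red genes were higher and blue genes lower in dom knockdown, with scrib at 1.08 and aPKC at -0.65 at the ends.

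The apical kinase gene aPKC (FBgn0261854, dm6 2R:14944458-14962969, minus strand, protein coding) encodes atypical protein kinase C. It was 36.3% lower, at a log2 ratio of -0.65 with an SE of 0.07 and 95% limits of -0.79 to -0.51 in the authors' deposited table. By size of its ratio it ranked 67 among the 399 listed genes whose mean count lay in the range of the 9 genes. Its SE was 0.709 times the median of listed genes of like abundance, and 9.34% of those genes had a smaller one. The annotation gives aPKC 12 transcripts with proteins of 503 to 958 residues, and a ratio per gene does not show which of them differed.

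Cdc42 (FBgn0010341, X:19697091-19699938, plus strand, protein coding) encodes the small GTPase that binds Par-6 and activates the apical kinase. It had the highest mean normalized count of the 9 genes, 20047, and was 14.1% lower in dom knockdown (log2 -0.22, SE 0.08) in the authors' deposited table. Its 95% limits reached from -0.37 to -0.07. Of its 2078 exon bases, 119 are shared with Tcs4 on the opposite strand, which was not listed. The other listed gene of the apical list, Patj, a PDZ protein of the Crumbs complex, was also lower, and the authors' deposited table gave it a ratio of -0.25 (SE 0.08). In all, 3 of the 8 genes for the Par and Crumbs complexes were listed, all lower, where 14.2% of all genes were listed as lower. Without aPKC and Cdc42, which were chosen for being listed, it was 1 of 6, and baz, par-6, insc, crb and sdt were not listed. Genes absent from the list either missed the threshold or were never tested, and nothing is known of their ratios.

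Scribble, the large scaffold that works with Discs large and Lethal giant larvae against the apical kinase, showed the largest difference. Its gene scrib (FBgn0263289, 3R:26536350-26604051, plus strand, protein coding) was 2.12-fold higher in dom knockdown, with 95% limits of 1.83 to 2.46, in the authors' deposited table. It ranked 16 by size among the 399 listed genes of the same abundance range, of which 20 differed by at least 2-fold, 6 of them higher. The partners dlg1 and l(2)gl and the interactor gukh were not listed. The 1 listed gene of the 4 in this module was thus scrib, which was chosen for being listed, where 28.0% of all genes were listed. The locus is the longest of the 9, with 67702 bases, of which 25.4% are exonic, and 18 transcripts for proteins of 1247 to 2585 residues. Neither of its nearest genes, plum and lncRNA:CR44951, was listed, and no exon base is shared with another gene.

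The spindle pair was split. The gene pins (FBgn0040080, 3R:27582840-27586376, plus strand, protein coding), whose product bridges Galphai and Mud, was 14.3% lower (log2 -0.22, SE 0.06) in the authors' deposited table. Its SE was the smallest of the 9, and only 0.904% of listed genes of like abundance had a smaller one. A ratio this small is listed only with a small SE, so nothing is read from that share. Galphai (FBgn0001104, 3L:6972750-6980044, minus strand, protein coding), the G protein subunit that binds Pins at the cortex, was 1.42-fold higher (log2 0.50, SE 0.20) in the authors' deposited table. Its SE was the largest of the 9 and 1.98 times the median of listed genes of like abundance. The 95% limits were 0.11 to 0.89 for Galphai and -0.35 to -0.10 for pins, and their opposite signs put them apart by the rule that chose them.

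The force generators downstream of Pins that were listed were lower. The authors' deposited table put Dhc64C, the heavy chain of cytoplasmic dynein, at -0.50 (SE 0.07) and DCTN1-p150, the dynactin subunit that binds it, at -0.20 (SE 0.07). With pins and Galphai these were the 4 listed genes of the 20 for spindle orientation, 1 higher and 3 lower. Over all genes 28.0% were listed, 13.9% as higher and 14.2% as lower. Without pins and Galphai, which were chosen for being listed, it was 2 of 18. The genes insc, mud, loco, cno, dlg1 and aurA were among the 16 not listed, as were the dynein-related genes ctp, Lis-1 and nudE.

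The basal determinants were split as well. The gene numb (FBgn0002973, 2L:9437469-9464184, plus strand, protein coding), whose product inhibits Notch in the daughter that inherits it, was 1.43-fold higher (log2 0.52, SE 0.19) in the authors' deposited table. The gene stau (FBgn0003520, 2R:18117896-18125779, minus strand, protein coding) encodes a protein that binds double-stranded RNA and carries prospero mRNA into the basal crescent. It was 26.5% lower (log2 -0.44, SE 0.10) in the authors' deposited table. Its cargo gene pros was lower too, at 0.291 times the wild type level (log2 -1.78, SE 0.27) in the authors' deposited table. The SE of numb was 1.86 times the median of listed genes of like abundance, and that of stau 1.01 times. The adaptors mira and pon and the determinant brat were among the 4 genes of this list of 9 that were not listed. Of its 5 listed genes, 4 were chosen for being listed. Without those it was 1 of 5, where 28.0% of all genes were listed.

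The 2 myosin genes were both slightly higher. The gene jar (FBgn0011225, 3R:24252826-24271233, minus strand, protein coding) encodes myosin VI, a motor needed for basal targeting of Miranda, and was 1.25-fold higher (log2 0.33, SE 0.11) in the authors' deposited table. The gene sqh (FBgn0003514, X:6223061-6225140, minus strand, protein coding) encodes the regulatory light chain of nonmuscle myosin II and was 1.14-fold higher (log2 0.19, SE 0.07) in the authors' deposited table. By size, sqh ranked 396 of the 399 listed genes of the same abundance range, the smallest ratio of the 9. Its heavy chain partner zip was not listed.

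Levels were compared between genes per kb of exon, using approximate genotype levels computed from the mean and the ratio in the authors' deposited table, which carry no error of their own. Exon length took in every base that is exonic in any annotated transcript, 17197 bases for scrib and 2078 for Cdc42, and the order depends on it. Before that division scrib had the highest level of the 9 in dom knockdown, about 19744 normalized counts against 18529 for Cdc42. Per kb, Cdc42 was the most abundant of the 9, at about 8917 normalized counts per kb in dom knockdown and 10378 in wild type. The light chain gene sqh followed with 7208 in dom knockdown and 6321 in wild type, and Galphai with 5493 in dom knockdown and 3873 in wild type. These 3 encode the smallest proteins of the set, of 191, 174 and 355 residues.

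Next in dom knockdown, stau lay at 3037 normalized counts per kb in dom knockdown and 4129 in wild type. It was followed in dom knockdown by numb, with 2573 per kb in dom knockdown and 1795 in wild type, and jar, with 2132 in dom knockdown and 1699 in wild type. For pins the values were 2128 per kb in dom knockdown and 2485 in wild type. In wild type the order differed, with stau above Galphai and pins above numb and jar. The pair at the bottom changed places too: scrib lay at 1148 per kb in dom knockdown and 541 in wild type, and aPKC at 968 in dom knockdown and 1520 in wild type. Whether neighbours in this order differ beyond the spread between libraries cannot be told from a table of means.

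**Figure D2:**
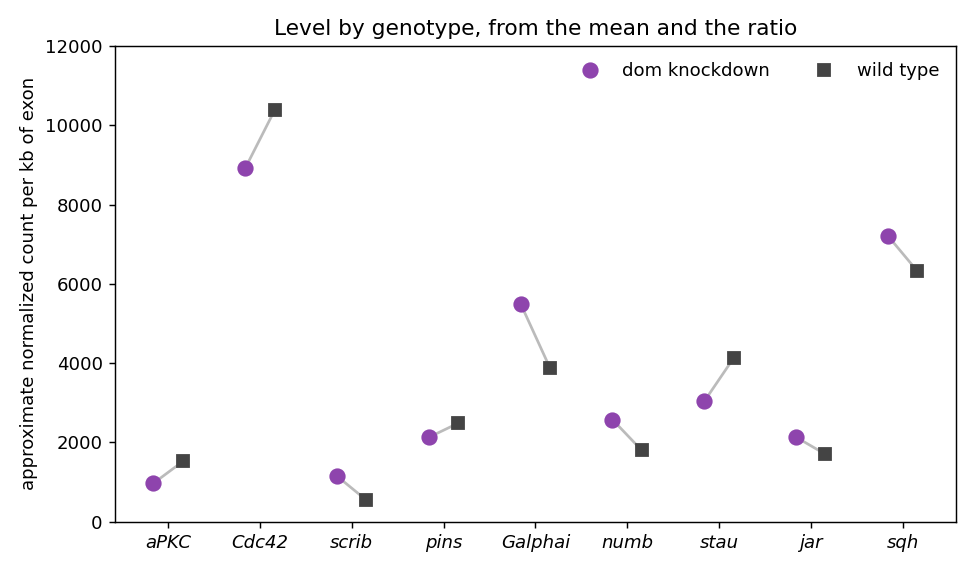
The vertical axis gives the approximate normalized count per kb of exon in dom knockdown (circles) and wild type (squares), computed from the authors' deposited table, for the 9 genes, with a grey line joining the genotypes. The scrib and aPKC levels cross, with scrib at 1148 in dom knockdown and 541 in wild type and aPKC at 968 in dom knockdown and 1520 in wild type, and no error is drawn because values per library were not used.

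The 9 genes were all abundant, with mean normalized counts of 7563 to 20047 in the authors' deposited table, above at least 81.2% of listed genes. In that range of counts 399 genes were listed, 99 higher (24.8%) and 300 lower, with a median log2 ratio of -0.33 in the authors' deposited table. The 9 genes, with 5 higher and a median of 0.19, form part of these 399, and since they were picked from the listed genes no test was made of that difference. Over all listed genes 49.5% were higher and the median was -0.20. Another centring was imitated by adding 0.1 to each log2 ratio, which left 60.8% of the called genes higher, or by taking 0.1 away, which left 41.2% higher. Of the 9 genes 7 were still called after the upward shift, which called 22.8% of all genes. After the downward one, which called 24.1%, 5 were still called. Genes outside the list could not enter after a shift, so these shares of all genes are lower limits. The splits of called genes rest on listed genes alone.

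**Figure D3:**
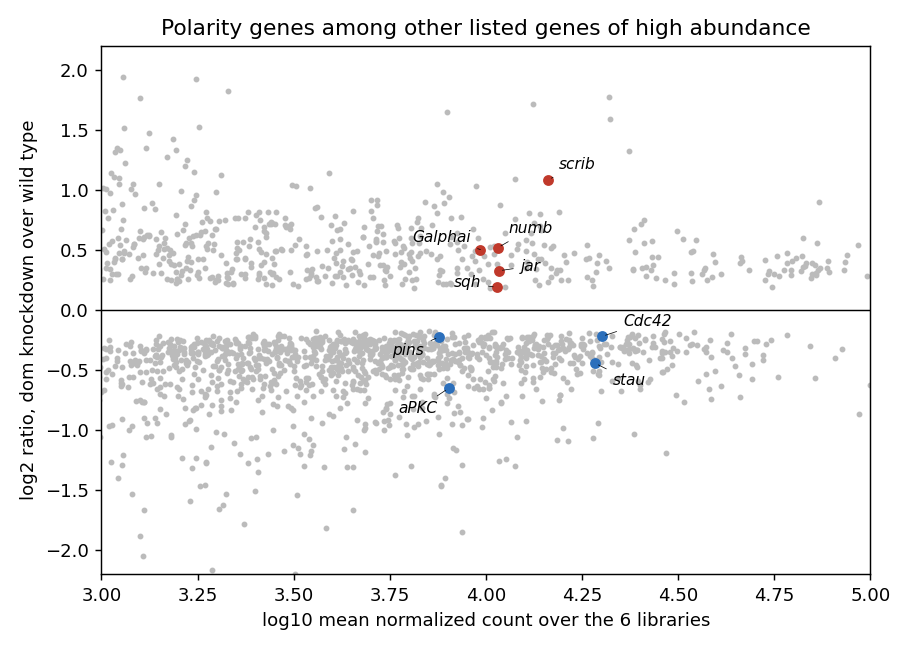
Each point is a listed gene, with the log10 of the mean normalized count on the horizontal axis and the log2 ratio of dom knockdown over wild type on the vertical axis, both from the authors' deposited table; genes beyond the axes are not drawn. The 9 genes are coloured red (higher in dom knockdown) or blue (lower), and most grey points at their abundance lie below 0.

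The errors set how close each gene lay to the threshold. The smallest Wald statistic listed was 2.46, so a gene needed a ratio of about that many SE to be listed. For Galphai this came to a log2 change of 0.49, against the 0.50 measured, and for numb to 0.46, against 0.52, in the authors' deposited table. For aPKC and scrib the same limits were 0.18 and 0.26, far below their ratios. The genes pins, sqh and Cdc42 were listed with small ratios because their errors were small, with limits of 0.16, 0.17 and 0.19. Stricter rules separated the genes further. At an adjusted p below 0.01 the called genes were aPKC, scrib, pins and stau, 4 of the 9, where 19.7% of all genes were called, and a Benjamini-Yekutieli adjustment, which called 17.3% of all genes, gave the same 4. A Bonferroni adjustment, with 8.34% of all genes called, and a test against a log2 change of at least 0.2, with 11.5% called, each kept aPKC and scrib alone.

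**Figure D4:**
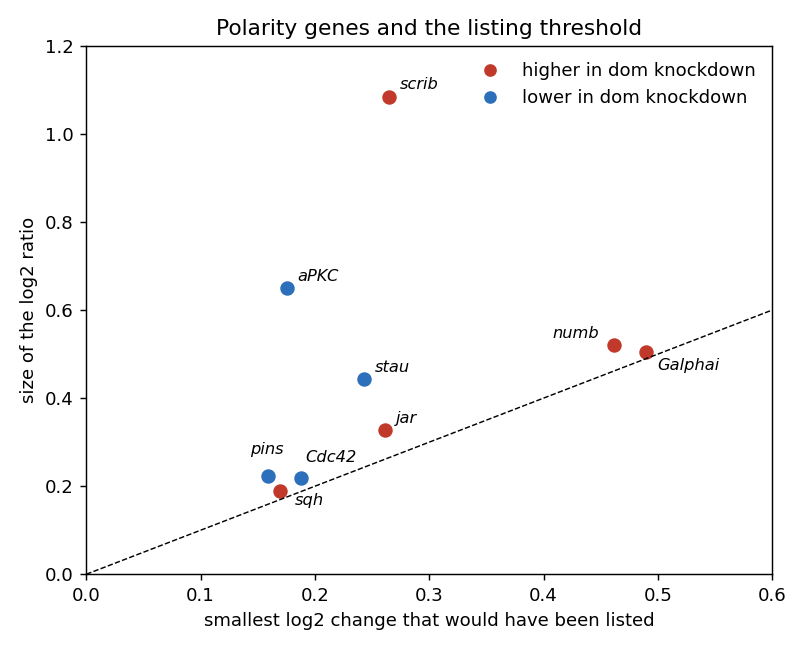
The horizontal axis gives the smallest log2 change that would have been listed given each gene's SE, the vertical axis the size of its log2 ratio, both from the authors' deposited table, and the dashed line marks equality. Red genes were higher and blue genes lower in dom knockdown, and Galphai at 0.49 and 0.50 lies nearest the line while scrib at 0.26 and 1.08 lies farthest above it.

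Genes that act with the 9 were read from further lists. Of 20 genes for myosin and its regulators, 4 were listed, where 28.0% of all genes were listed. Without jar and sqh, which were chosen for being listed, it was 2 of 18. Unlike jar and sqh this other pair was lower. The authors' deposited table put didum, which encodes myosin V, at -0.95 (SE 0.10), and the myosin phosphatase subunit gene Mbs at -0.27 (SE 0.09).

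Among 16 genes for heterotrimeric G proteins and their regulators, Galphai was the 1 higher gene of the 4 listed. Without Galphai, which was chosen for being listed, it was 3 of 15, where 28.0% of all genes were listed. In the authors' deposited table Dhit and RSG7, which encode regulators of G protein signalling, stood at -0.85 (SE 0.17) and -0.49 (SE 0.17), and Gbeta5 at -0.61 (SE 0.18). Of 17 kinase and phosphatase genes of cortical polarity 6 were listed, 1 higher and 5 lower. Over all genes 13.9% were listed as higher and 14.2% as lower. As the authors' deposited table gives them, the phosphatase 4 subunit gene PPP4R2r stood at -0.77 (SE 0.12), the phosphatase 2A subunit gene wrd at -0.45 (SE 0.10) and the kinase gene par-1 at -0.30 (SE 0.08), while the kinase gene Pdk1 was higher at 0.53 (SE 0.10).

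The listed partners of numb did not share a direction. The membrane protein gene spdo, which Numb keeps from the cell surface, and the ubiquitin ligase gene neur were higher like numb, and the authors' deposited table gave 0.64 (SE 0.20) for spdo and 0.44 (SE 0.12) for neur. The authors' deposited table put the clathrin adaptor subunit genes AP-2mu and AP-2sigma lower, at -0.26 and -0.27 (SE 0.08 each), and the kinase gene Nak, named after its value was seen, at -0.28 (SE 0.10). In this list 6 of 14 genes were listed, 3 higher and 3 lower, and without numb, which was chosen for being listed, it was 5 of 13. In the list for the Staufen particle and RNA localization 7 of 18 were listed, 6 of them lower, counting stau, which was chosen for being listed, and without stau 6 of 17. Over all genes 28.0% were listed, 13.9% as higher and 14.2% as lower. In the abundance range of the 9 polarity genes 300 of the 399 listed genes were lower. Of the listed genes for the Staufen particle only stau lay in that range. In the authors' deposited table Fmr1, a translational repressor, stood at -0.34 (SE 0.07) and the cargo adaptor gene BicD at -0.33 (SE 0.10), while exu was higher at 1.02 (SE 0.23) on a mean normalized count of only 264.

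Cell contact and other polarity systems did not share a direction. The counts of these lists stand beside 28.0% of all genes listed, 13.9% as higher and 14.2% as lower. Among 18 junction genes there were 5 listed ones, 3 higher and 2 lower. The authors' deposited table put the cadherin gene shg at 0.46 (SE 0.17), Fas3 at 0.35 (SE 0.12), yrt at -0.59 (SE 0.10) and Mcr at -0.34 (SE 0.08). In planar cell polarity fz and pk were higher, for which the authors' deposited table gave 0.48 (SE 0.12) and 0.33 (SE 0.09), and the other 7 of 9 genes were not listed. Of 16 genes for the centrosome and astral microtubules the authors' deposited table held only Wdr62, lower at -0.57 (SE 0.09).

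**Figure D5:**
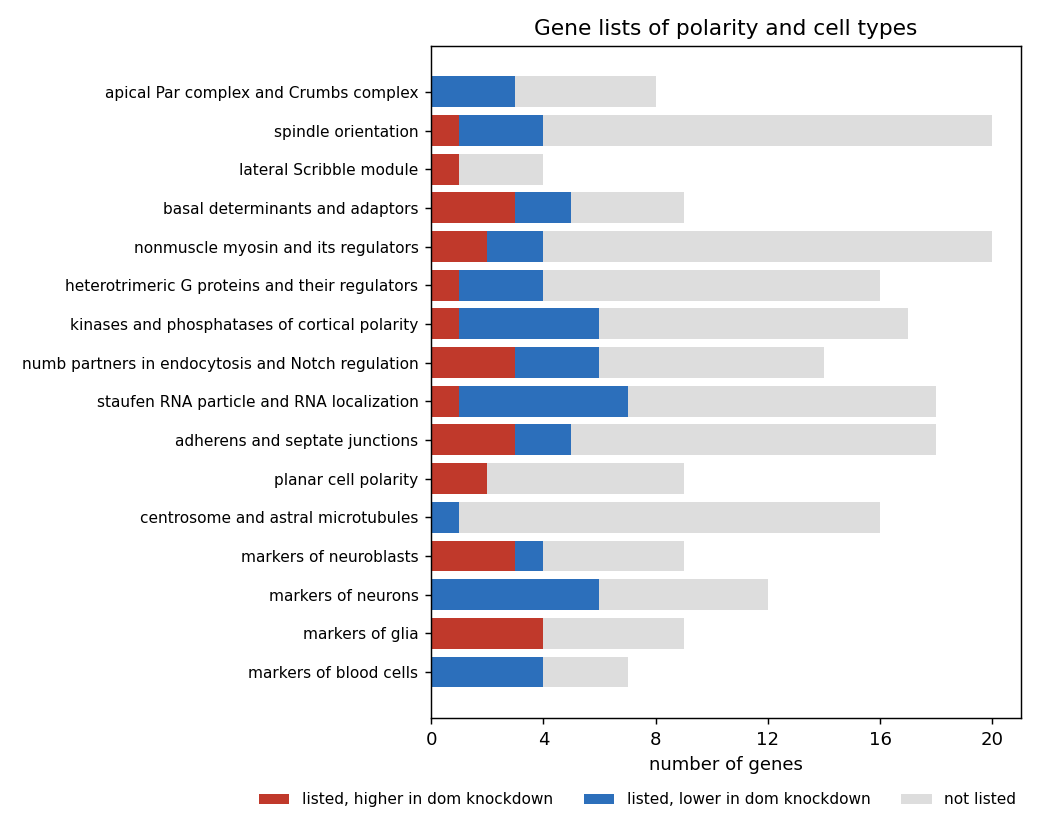
Bars count the genes of each list that were listed as higher in dom knockdown (red), listed as lower (blue) or not listed (grey) in the authors' deposited table, with the number of genes on the horizontal axis. The list for the Staufen particle holds 7 listed genes of 18, 6 of them lower, and the list for centrosomes 1 of 16. Over all genes 28.0% were listed, 13.9% as higher and 14.2% as lower.

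Markers of cell types were also among the listed genes, and their counts stand beside 28.0% of all genes listed, 13.9% as higher and 14.2% as lower. Neuron markers were represented by 6 genes of 12, each of them lower, with a median of -0.67. The authors' deposited table put Rbp9 at -2.71, fne at -0.87, Gad1 at -0.74 and cpx at -0.54. The neuron markers elav, nSyb, brp, VAChT, VGlut and Syx1A were absent. Glia markers were represented by 4 of 9, each of them higher, and moody, Gs2, nrv2, Eaat1 and wrapper were absent. The authors' deposited table put alrm at 1.94, htl at 0.81, gcm at 0.72 and repo at 0.56. Neuroblast markers went both ways, with 4 of 9 present. In the authors' deposited table sna had a ratio of 0.76, wor of 0.61, nab of 0.46 and grh of -0.79, and dpn, ase, mira, insc and klu were absent. Blood cell markers were represented by 4 of 7, each of them lower, and NimC1, srp and He were absent. The authors' deposited table put PPO1 at -4.77 (SE 0.41) and PPO2 at -1.51 (SE 0.17). In the authors' deposited table Pxn stood at -1.19 (SE 0.21) and Hml at -0.80 (SE 0.32). Mean normalized counts there were only 117 for PPO1, 382 for PPO2 and 554 for Hml, against 4843 for Pxn. The part of cell composition in the ratios of the 9 polarity genes was not tested, and markers that are not listed could not be used to check the sorted cell type.

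The 9 genes lie apart, on 5 chromosome arms, and range from 2080 bases for sqh to 67702 for scrib. Their exon lengths did not separate the directions, with 1578 to 17197 bases among the 5 higher genes and 2078 to 6433 among the 4 lower ones. A nearest gene on either side was listed for 4 of the 9 (44.4%), compared with 46.3% of the 3256 listed genes that have a position in the annotation. The gene wdb, a phosphatase 2A subunit gene transcribed away from pins with 598 bases between them, was lower like pins, and the authors' deposited table gave it -0.20 (SE 0.07). Lap1, on the left of aPKC at 3735 bases, was lower as well, with -0.38 (SE 0.12) in the authors' deposited table.

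Beside the 2 myosin genes the neighbours did not all follow. Orct2, 1795 bases from jar, was higher at 1.42 (SE 0.20), a larger ratio than that of jar itself, in the authors' deposited table. Efr and dtn, 341 and 506 bases from either end of sqh, were lower at -0.33 and -0.38 (SE 0.13 each), opposite to sqh, in the authors' deposited table. Exon bases shared with other genes were 119 for Cdc42, 12 for aPKC with CG10257, and none for the other 7. For Cdc42 this is 5.73% of its exon bases.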

How the data were processed

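RNA of sorted cells was sequenced in 6 libraries, grouped by title into dom knockdown and wild type. The submitters' processing notes name build dm6, DESeq2, HTSeq 0.6.1, SAMtools 0.1.19, STAR 2.3.0e and FastQC 0.11.2. Their roles, the annotation, the strand setting, filters and any shrinkage were not given in the sources used here. Per the file headers, the authors deposited for each gene a mean signal of normalized counts over all libraries, a log2 ratio with its standard error, a Wald score, and p-values before and after adjustment. The UTF-7 table was decoded. The header names the control first, and dom was lower in knockdown only with the sign turned, so signs were turned; were that wrong, every direction would swap.

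Each adjusted p times the rank of its p, over that p, gave 11859 tests, within 0.01 in 2883 rows. Python 3.11.15, pandas 2.3.3 and SciPy 1.17.1 were used, and the recovery of that number was tested on simulated data in 5 runs. Genotype levels were solved from mean and ratio, taking the mean as that of 2 equal groups and the ratio as not shrunken. Like abundance means the same of 10 bins of the mean count. Listing itself depended on the SE, so comparisons of SE among listed genes are descriptions only. Symbols matched 3264 of 3326 IDs. Positions are from Ensembl release 115 (BDGP6.54, dm6 coordinates), 1-based. All members are named, with every listed gene of 4 polarity lists, up to 4 genes per other list by adjusted p, and listed or overlapping neighbours. The members and the 16 lists were chosen with earlier results of these data known, and 1 further list is not reported here. Read depth is unknown. Sequences were not analysed here.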

Additional observations from a re-analysis of the deposited data

How the results depend on the processing

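Of the 9 polarity genes, aPKC and scrib passed each of the 6 alternatives to the test, which called 8.34% to 24.1% of all genes. None of these alternatives could turn a direction, since 4 leave the ratio as it is and a shift of 0.1 is smaller than the smallest ratio. At adjusted p below 0.01, 1 member was higher (scrib) and 3 were lower (aPKC, pins and stau), among 1110 higher and 1221 lower genes. With a Bonferroni adjustment 1 member was higher and 1 lower, among 490 higher and 499 lower genes. Against a change of at least 0.2 on the log2 scale 1 member was higher and 1 lower, among 795 higher and 572 lower genes. With all log2 ratios shifted up by 0.1, 2 members and 1061 genes were lower. With the ratios shifted down by 0.1, 1 member and 1179 genes were higher. With a Benjamini-Yekutieli adjustment, chosen after seeing the data, 1 member was higher, among 976 higher and 1072 lower genes. Over its alternatives the adjusted p of aPKC reached 1.31e-08 and that of scrib 2.25e-14, while for stau the highest was 0.1002. For the gene lists, 72 of the 150 counts that started above 0 fell by more than 1.5 times. The stricter thresholds can only lower a count. A shift favours 1 direction over the other, but genes outside the table cannot enter, so no count could grow. Leaving out members with over 20% of exon bases shared could change no count, since the largest share was 5.73%, for Cdc42, and no member was left out. No paired analysis was possible because the columns carry no values per library, and for the same reason no replicate could be left out. The planned description of promoter motifs and proteins was not run.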
